A study of Drosophila melanogaster with 4 samples.

Results

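Transposon RNA was compared between the 2 knockdown libraries of the series: siPIWI ovarian somatic cells (OSCs) and ovaries of the genotype Tj-GAL4>vretenoGD. They are 2 of 4 libraries, and each stands alone in its group. OSCs are a cultured *Drosophila melanogaster* line of somatic follicle cells, and the labelled treatment is siRNA against *piwi*. The ovaries carried the vretenoGD construct, directed against *vreteno*, under Tj-GAL4, a driver of somatic follicle cells, in flies kept at 25 °C; ages and the number of flies pooled are not given. The matched controls, used here as background, were siGFP OSCs and ovaries of the genotype Tj-GAL4>arrestin2GD. All were direct RNA sequencing libraries of poly(A) RNA, in which sequencing of a molecule begins at its 3' end. The members were every transposon in the files, 124 of 150 reference sequences. The other 26 (Stellate, Suppressor of Stellate and all sequences whose name ends in randomDistribution) were left out.

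Transposons that move through RNA are silenced in animal gonads by piRNAs, small RNAs bound by Piwi-class Argonaute proteins. In follicle cells Piwi is the Argonaute that acts in the nucleus, and Vreteno is a Tudor-domain protein needed to load it with piRNAs, so both knockdowns reduce the same somatic pathway. The main somatic piRNA source, the *flamenco* locus, targets Ty3/gypsy elements, among them endogenous retroviruses that carry an env gene. An ovary also holds germ cells, in which the driver is not active and which use further Argonautes, whereas an OSC culture holds no germ line. Fewer cells of a type and less RNA per cell cannot be told apart in bulk libraries like these. The files hold no host genes, so cell type markers and the levels of *piwi* and *vreteno* were not analysed here.

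Each deposited value was taken as a count of 3' read ends at 1 consensus position. The siPIWI OSC library held 164243 transposon reads and the vreteno knockdown ovary library 5156. In the controls there were 57045 in siGFP OSCs and 2382 in arrestin2 ovaries. Library totals over genes are not in these files, so shares of transposon reads were compared and not amounts per cell. Intervals are exact 95% intervals that cover counting error only. With 1 library a group there was no test and no replicate check, and a difference between the libraries can come from the cell source, the knocked-down gene, the knockdown method or the library.

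Copia, a retrotransposon of the Ty1/copia class without an env gene, was the most abundant element of siPIWI OSCs. It took 86920 reads there, 52.9% of transposon reads (52.7 to 53.2), against 903 reads or 17.5% (16.5 to 18.6) in knockdown ovaries. The share was 3.02-fold higher in OSCs (2.83 to 3.23). In the controls copia took 73.2% in siGFP OSCs and 20.9% in arrestin2 ovaries. Because copia fills so much of the OSC library, all further shares are of transposon reads without copia, 77323 in siPIWI OSCs and 4253 in knockdown ovaries, unless stated.

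The siPIWI OSC library was the less even one. With copia counted, its 10 most abundant elements held 94.1% of transposon reads, against 79.4% in knockdown ovaries. On the same totals 7 elements were enough for 90% in OSCs and 24 in ovaries. Without copia, 11 elements made up 90% in OSCs and 26 in ovaries. Reads were found for 100 transposons in siPIWI OSCs and for 88 in knockdown ovaries, with 85 in both, 15 in OSCs alone and 3 in ovaries alone. Drawn down to the 5156 reads of the ovary library, the OSC library would be expected to show 59.9 transposons, against the 88 seen in ovaries. The deeper library therefore had more elements in all but fewer per read.

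The leading elements were in part shared. Of the 10 most abundant in each library, 6 were in both lists (60% of each): copia, springer, gypsy, mdg1, '412' and blood. They held 88.9% of transposon reads in siPIWI OSCs and 58.4% in knockdown ovaries, copia included. The other 4 were '297', Stalker2, mdg3 and flea in OSCs, and ZAM, DNAREP1, Doc and pogo in ovaries. The OSC remainder consists of LTR retrotransposons, of which '297' is an endogenous retrovirus with an env gene. The ovary remainder holds such a retrovirus too (ZAM), and a short DNA repeat, a non-LTR element and a DNA transposon. The summed overlap of shares (for each element the smaller of the shares) was 42.2% between the knockdown libraries and 16.8% between the controls. These are without copia, and with copia they were 46.2% and 27.9%.

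**Figure D1:**
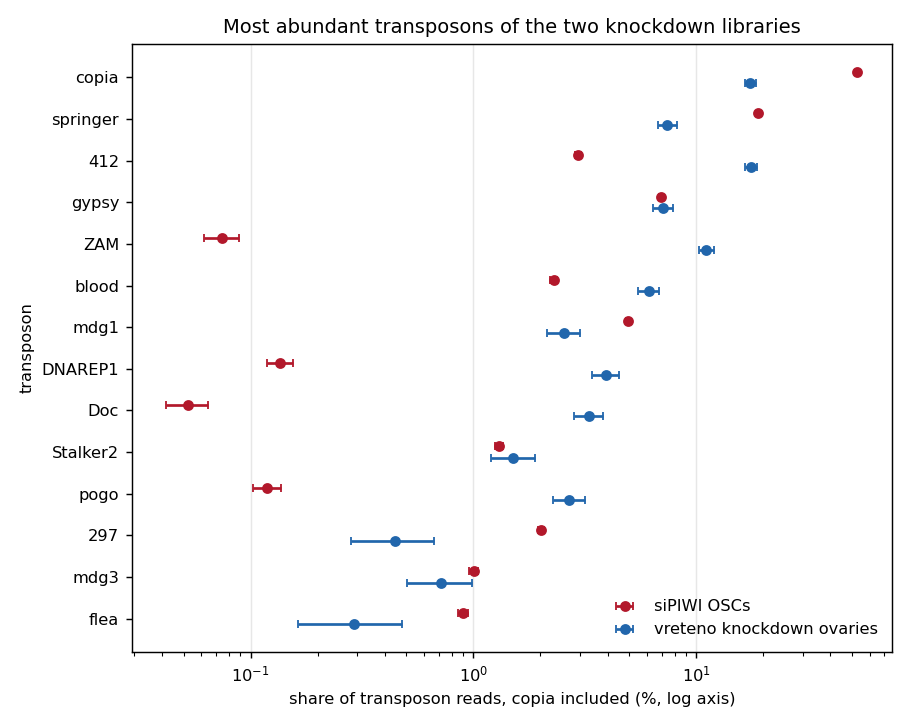
Share of transposon reads, copia included, on a log axis, for the 14 elements among the 10 most abundant of either library, with exact 95% counting intervals (1 library each). Copia stands at 52.9% in siPIWI OSCs and 17.5% in vreteno knockdown ovaries, gypsy lies at nearly the same share in both, and ZAM, Doc, pogo and DNAREP1 lie far lower in OSCs.

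Elements with a mean share of at least 0.2% over both libraries were compared by their ratio of shares, with 0.02% added to each share. Of these 39 elements, 6 were at least 4-fold higher in siPIWI OSCs (15.4% of those compared) and 19 at least 4-fold higher in knockdown ovaries (48.7%). The median log2 ratio of the 39 was -1.77, so the typical element of this set had a smaller share in OSCs. The minimum is on the mean of both shares, so an element can pass through 1 library alone. Burdock passed through its ovary share (0.00259% in OSCs, 1.27% in ovaries) and invader4 through its OSC share (1.85% and 0.0470%). The set, its counts and its median therefore depend in part on the minimum. The 6 elements higher in OSCs held 50.2% of OSC reads and 10.2% of ovary reads, and the 19 higher in ovaries held 2.05% and 37.8%. With copia in the total, 3 of 36 elements (8.33%) were at least 4-fold higher in OSCs and 20 (55.6%) in ovaries. With shares scaled to the median ratio of the 39 elements with at least 10 reads in both libraries (0.225, a log2 shift of -2.15), the counts were 21 and 8. The minimum was then applied to the scaled shares, so these counts are of a larger set. The 21 include Circe, Copia1, S2, diver and gypsy5, which had not passed the minimum before scaling. Near the limit, springer, roo, Juan and '1360' lay just inside, and mdg1 (3.42-fold higher in OSCs) and '412' (3.42-fold higher in ovaries) just outside. With copia in the total '412' was 5.995-fold higher in ovaries (5.58 to 6.44), and under median scaling its direction turned (log2 0.38).

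The control libraries were set beside these differences, as far as their depth allowed. Of the 6 elements higher in siPIWI OSCs, 4 were also at least 4-fold higher in siGFP OSCs than in arrestin2 ovaries: springer, gypsy12, invader4 and 3S18. Of the 19 elements higher in knockdown ovaries, 16 were also at least 4-fold higher in arrestin2 ovaries. Among these, rover had 3 reads in siGFP OSCs and 7 in arrestin2 ovaries and was under the minimum in the controls. Over the 47 elements past the minimum in the controls, 11 (23.4%) were higher in OSCs and 23 (48.9%) in ovaries. The elements that passed 4-fold in the knockdown libraries and not in the controls were '297' and flea on the OSC side, and ZAM, HMS-Beagle2 and '1360' on the ovary side. ZAM (17 reads in siGFP OSCs and 3 in arrestin2 ovaries) and HMS-Beagle2 (15 and 3) were under the minimum in the controls. '1360' lay close to the limit in both pairs, at 4.59-fold (3.34 to 6.21) in the knockdowns and 3.94-fold (2.76 to 5.55) in the controls.

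**Figure D2:**
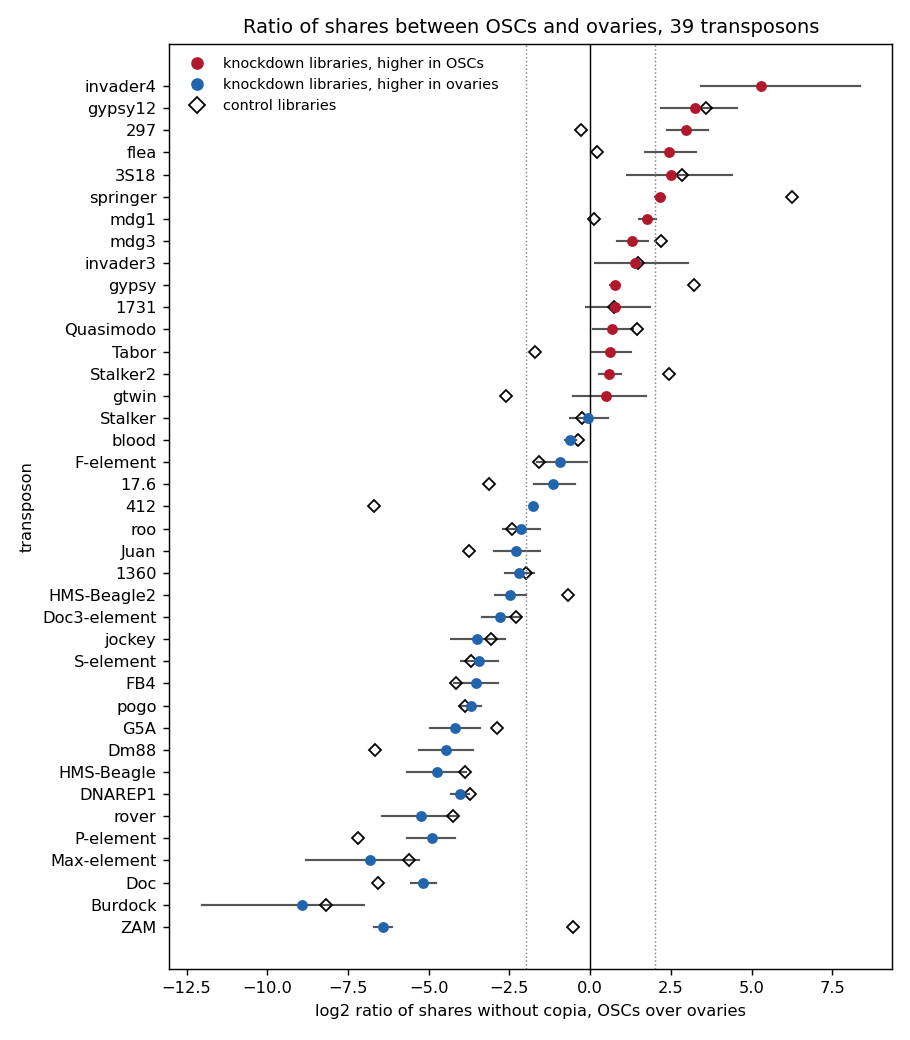
Log2 ratio of shares without copia, OSCs over ovaries, for the 39 transposons past the minimum, with no value added to the shares. Filled points with 95% counting intervals are siPIWI OSCs over vreteno knockdown ovaries, open diamonds siGFP OSCs over arrestin2 ovaries (invader4, with 0 reads in the arrestin2 library, has none), and dotted lines mark 4-fold. Elements are ordered by their ratio with 0.02% added; ZAM, '412', '297' and springer show wide gaps between point and diamond.

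Endogenous retroviruses with an env gene, which can encode the surface protein that infectious retroviruses use to enter cells, took 61.3% of reads in siPIWI OSCs (61.0 to 61.6) and 34.4% in knockdown ovaries (33.0 to 35.9). With copia in the total the shares of this group were nearly equal, at a log2 ratio of 0.02. Of its 17 members, 8 passed the minimum, with 2 at least 4-fold higher in OSCs (springer and '297'), 2 at least 4-fold higher in ovaries (ZAM and rover) and a median log2 ratio of 0.55. In the controls the group took 64.6% in siGFP OSCs and 5.20% in arrestin2 ovaries.

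Of the env retroviruses past the minimum, ZAM had the largest difference between the libraries. It had 122 reads in siPIWI OSCs (0.158% of reads) and 573 in knockdown ovaries (13.5%), a share 85.4-fold higher in ovaries (70.1 to 105). In the controls it had 17 reads in siGFP OSCs and 3 in arrestin2 ovaries, with a ratio of 0.699 for OSCs over ovaries (0.202 to 3.72), so no such gap was detectable there. Within the group, ZAM made up 0.257% of env-element reads in OSCs (0.214 to 0.307) and 39.1% in ovaries (36.6 to 41.7). A ratio of 2 elements inside a library does not depend on its total: ZAM had 0.0107 reads per gypsy read in siPIWI OSCs and 1.56 (1.37 to 1.78) in knockdown ovaries.

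Springer was the most abundant element after copia in OSCs, with 31023 reads (40.1%) in siPIWI OSCs and 383 (9.01%) in knockdown ovaries, 4.46-fold higher in OSCs (4.03 to 4.94). In the controls the gap was larger, 9220 reads in siGFP OSCs and 15 in arrestin2 ovaries, or 75.8-fold (46.0 to 136). With reads of copia in the total, springer was under 4-fold, at a log2 ratio of 1.34.

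Gypsy, the element after which the group is named, had 11386 reads in siPIWI OSCs (14.7%) and 367 in knockdown ovaries (8.63%), 1.71-fold higher in OSCs (1.54 to 1.90); with copia in the total the log2 ratio was -0.04. Its place inside the group was nearly the same in both, 24.0% of env-element reads in OSCs (23.6 to 24.4) and 25.1% in ovaries (22.9 to 27.4). In the controls it had 377 reads in siGFP OSCs and 5 in arrestin2 ovaries, 9.30-fold higher in OSCs (3.95 to 28.8).

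The closely related elements '297' and '17.6' went different ways. '297' had 3306 reads in siPIWI OSCs (4.28%) and 23 in knockdown ovaries (0.541%), 7.91-fold higher in OSCs (5.26 to 12.5). '17.6' had 206 reads (0.266%) and 25 reads (0.588%), with a ratio of 0.453 (0.298 to 0.717), a direction that turned under median scaling (log2 0.99). There were 16.0 reads of '297' for each read of '17.6' in siPIWI OSCs (13.9 to 18.6) and 0.92 in knockdown ovaries (0.499 to 1.69). The same pair stood at 3.22 (2.07 to 5.16) in siGFP OSCs and 0.448 (0.214 to 0.89) in arrestin2 ovaries, so '297' outnumbered '17.6' in both OSC libraries and in neither ovary library beyond counting error.

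Among the less abundant retroviruses, rover had 11 reads in siPIWI OSCs and 23 in knockdown ovaries, 38.0-fold higher in ovaries (17.8 to 86.4). Quasimodo had 697 and 24 reads, with a ratio of 1.60 for OSCs over ovaries (1.06 to 2.51) that turned with copia in the total (log2 -0.13). The ratio was 1.40 for gtwin (0.698 to 3.29), 2.59 for gypsy5 (141 and 3 reads, 0.867 to 12.7), 0.825 for Pifo (120 and 8 reads, 0.406 to 1.95) and 0.385 for Idefix (35 and 5 reads, 0.15 to 1.26). For these 4 no difference was detectable at this depth. Opus (57 and 11 reads) had a ratio of 0.285 (0.148 to 0.603) and gypsy6 (79 and 10 reads) of 0.435 (0.224 to 0.941), and both turned under median scaling. The remaining members had few reads: 1 and 1 for gypsy10, 5 and 0 for accord, 2 and 0 for accord2 and 0 and 0 for Tirant. A count of 0 in the ovary library allows a share of up to 0.0867% by the exact interval.

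The mdg1 group holds Ty3/gypsy elements without a working env gene. It took 25.9% of reads in siPIWI OSCs (25.6 to 26.2) and 34.9% in knockdown ovaries (33.5 to 36.4), an order that turned under median scaling and without springer in the total. All 6 members passed the minimum, none was at least 4-fold apart, and the median log2 ratio was 0.27. In the controls the group took 3.80% in siGFP OSCs and 17.2% in arrestin2 ovaries.

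The group was led by different members. In siPIWI OSCs mdg1 came first, with 8137 reads or 40.7% of the group (40.0 to 41.4), and in knockdown ovaries it had 131 reads or 8.82% (7.42 to 10.4). '412' had 4835 reads in OSCs, 24.2% of the group (23.6 to 24.8), and 910 in ovaries, 61.2% (58.7 to 63.7). There were 1.68 reads of mdg1 for each read of '412' in siPIWI OSCs (1.62 to 1.74) and 0.144 in knockdown ovaries (0.119 to 0.173). In the controls this ratio was 4.45 in siGFP OSCs (2.72 to 7.63; 89 and 20 reads) and 0.0391 in arrestin2 ovaries (0.0185 to 0.0730; 10 and 256 reads), so the order of the pair was the same in each cell source with and without the knockdown.

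Of the other members, blood had 3759 reads in siPIWI OSCs and 317 in knockdown ovaries, 18.8% and 21.3% of the group. Stalker2 had 2148 and 78 reads, 10.7% (10.3 to 11.2) and 5.25% (4.17 to 6.51) of the group. Tabor had 668 and 24 reads, 3.34% (3.10 to 3.60) and 1.62% (1.04 to 2.39). Stalker had 452 and 26 reads, 2.26% (2.06 to 2.48) and 1.75% (1.15 to 2.55), which were not separate.

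**Figure D3:**
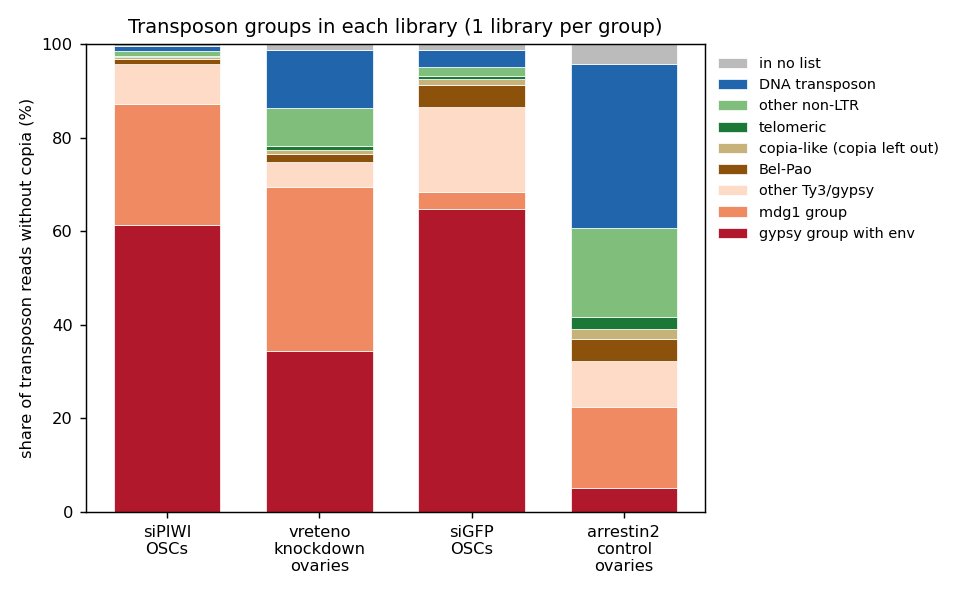
Stacked shares of transposon reads without copia for 8 groups of transposons and the elements in no group, 1 bar per library. Env retroviruses and the mdg1 group together fill most of the siPIWI OSC bar (61.3% and 25.9%) and of the vreteno knockdown ovary bar (34.4% and 34.9%), and non-LTR elements and DNA transposons are wider in both ovary bars.

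Other Ty3/gypsy elements included the elements with the highest ratios towards OSCs. The group took 8.58% of reads in siPIWI OSCs (8.38 to 8.78) and 5.50% in knockdown ovaries (4.84 to 6.23), an order that turned with copia in the total (log2 -0.17). Of the 8 members that passed, 3 were at least 4-fold higher in OSCs and 3 in ovaries, with a median log2 ratio of 1.27. Invader4 had 1432 reads in siPIWI OSCs and 2 in knockdown ovaries, a ratio of 39.4 (10.9 to 326), and 703 and 0 reads in the controls. Gypsy12 had 1204 and 7 reads (9.46-fold, 4.58 to 23.6), with 589 and 6 in the controls. Flea had 1472 and 15 reads (5.40-fold, 3.26 to 9.67) and in the controls 66 and 7 (1.16-fold, 0.534 to 3.01). With copia in the total flea was under 4-fold, at 3.08-fold (1.86 to 5.52). Burdock, an element known for its RNA in germ cells of piRNA mutants, had 2 reads in siPIWI OSCs and 54 in knockdown ovaries, a ratio of 491 for ovaries over OSCs (129 to 4157), and 2 and 71 in the controls. HMS-Beagle2 had 157 and 48 reads and was 5.56-fold higher in ovaries (3.94 to 7.72); its controls had 15 and 3 reads, with an interval that included 1.

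Non-LTR retrotransposons and DNA transposons both took a smaller share in siPIWI OSCs than in knockdown ovaries. Non-LTR elements, which copy themselves by reverse transcription at the target site, took 0.974% in siPIWI OSCs (0.906 to 1.05) and 8.18% in knockdown ovaries (7.38 to 9.05), and 1.76% and 19.0% in the controls. Of the 6 that passed the minimum, 5 were over 4-fold higher in ovaries (median log2 -2.80). All 5 of these had OSC shares under 0.2% and passed through their ovary share, so the count and median depend in part on the minimum. Over all 39 elements compared, 19 (48.7%) were at least 4-fold higher in ovaries. Doc, with 86 and 170 reads, led in knockdown ovaries and was 35.9-fold higher there (27.6 to 47.1). In siPIWI OSCs F-element led, with 163 reads against 17 in knockdown ovaries. DNA transposons, which move without an RNA intermediate, took 1.21% in siPIWI OSCs (1.13 to 1.29) and 12.3% in knockdown ovaries (11.3 to 13.3), and 3.80% and 35.1% in the controls. All 5 members that passed the minimum were over 4-fold higher in ovaries (median log2 -3.59), among them pogo (195 and 139 reads, 13.0-fold, 10.3 to 16.2), DNAREP1 (223 and 202 reads, 16.5-fold, 13.5 to 20.01) and P-element (26 and 43 reads, 30.1-fold, 18.1 to 51.0). P-element and S-element had OSC shares under 0.2% and likewise passed through their ovary share. Under median scaling only Doc among the non-LTR elements and P-element among the DNA transposons remained at least 4-fold higher in ovaries. The summed share of each group kept its direction under every scaling tried.

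Smaller groups were closer. The Bel-Pao elements took 1.02% in siPIWI OSCs (0.950 to 1.09) and 1.65% in knockdown ovaries (1.29 to 2.07), an order that turned under median scaling (log2 1.46). They held opposite members: 3S18 was 5.65-fold higher in OSCs (411 and 4 reads, 2.19 to 20.8), whereas Max-element (4 and 25 reads) was 114-fold higher in ovaries (39.2 to 449) and roo (135 and 33 reads) 4.44-fold (2.94 to 6.54). The telomeric retrotransposons, which maintain fly chromosome ends, took 0.287% in siPIWI OSCs (0.251 to 0.327) and 0.776% in knockdown ovaries (0.535 to 1.09), an order that turned under median scaling, and no member passed the minimum. Copia-like elements other than copia took 0.433% (0.388 to 0.482) and 0.917% (0.653 to 1.25), which also turned under median scaling; Dm88 had 24 and 29 reads (22.0-fold higher in ovaries, 12.3 to 39.4). Of 63 further elements with reads under the minimum share, 3 had counting intervals above 1 for OSCs over ovaries (Copia1, Circe and diver) and 21 below 1. Copia1 had 126 reads in siPIWI OSCs and 0 in knockdown ovaries. Its share was 2.31-fold higher in OSCs on a floor of 3 reads, and its exact interval began at 1.85.

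The position where reads end marks where an RNA was polyadenylated or captured. Unlike a share, it does not depend on the reads of other elements. Where an element has few reads, however, its position with most reads is subject to counting error. For the 12 elements with at least 50 reads in both libraries, the position with most reads was the same nucleotide in 5. These were copia (position 5076 of 5143), gypsy (7260 of 7469), springer (7340 of 7546), ZAM (8309 of 8435) and '412' (7522 of 7567), on the consensus sequences and counted from 1. Stalker2 had tied positions in ovaries, 7600 and 7613 with 11 reads each, and 7613 was also its main position in OSCs, so 6 matched when ties were counted. Among 16 elements with 20 to 49 reads in the shallower library, 11 had the same main position. For '412', 28.9% of reads ended exactly at 7522 in siPIWI OSCs and 27.8% in knockdown ovaries. For springer 29.2% and 30.8% ended at 7340.

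Of the other 7 elements, 4 had main positions within 25 nt of each other when ties were counted (Doc, DNAREP1, Stalker2 and mdg1), and '1360' alone had them over 1000 nt apart. Doc reads ended most often at 4701 in siPIWI OSCs and 4713 in knockdown ovaries, and DNAREP1 reads at 563 and 587. For mdg1 the main position was 7412 in OSCs; in ovaries 1281 and 7422 tied with 10 reads each, and 9 reads ended at 7412. For '1360' it was 351 of 3409 in OSCs (39 reads) and 3408 in ovaries (8 reads), but the 25-nt window with most reads started at 327 in both. Windows of this kind began within 10 nt of each other for 9 of the 12 elements.

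**Figure D4:**
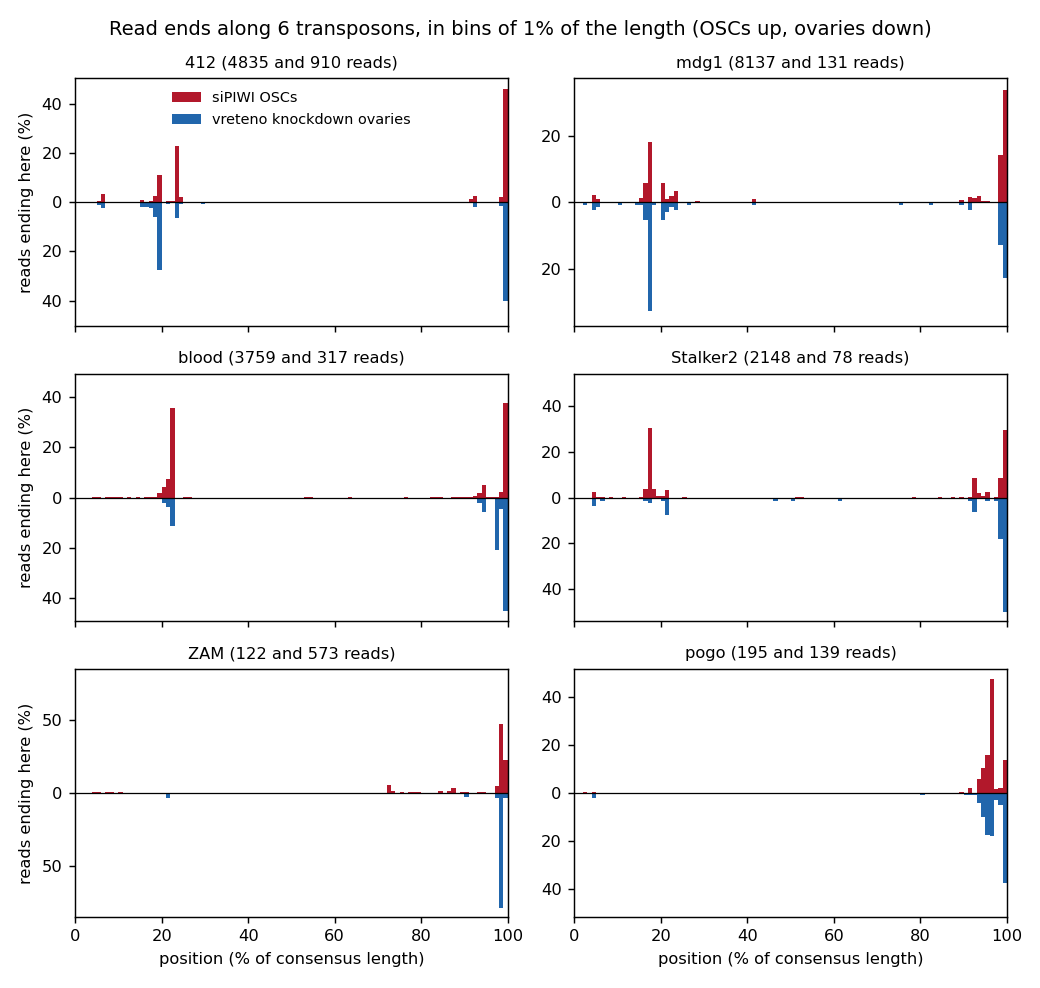
Percentage of an element's reads that end in each 1% of its consensus length, for 6 transposons, with siPIWI OSCs drawn upwards and vreteno knockdown ovaries downwards. Most ends of every element lie in the last percents or, in '412', mdg1, blood and Stalker2, also in a stretch well upstream, and the heights of these upstream peaks differ between the libraries.

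Upstream ends differed in their share. The 4 mdg1-group elements in this set had a large share of ends outside the last 30% of the sequence. The share of ends in the last 30% was larger in siPIWI OSCs for '412' (53.7%, 52.2 to 55.1, against 44.6%, 41.4 to 47.9, in knockdown ovaries) and for mdg1 (55.8%, 54.7 to 56.9, against 40.5%, 32.0 to 49.4). It was smaller in siPIWI OSCs for blood (48.6%, 47.0 to 50.2, against 80.8%, 76.0 to 84.9), Stalker2 (53.1%, 50.9 to 55.2, against 78.2%, 67.4 to 86.8) and springer (89.6%, 89.3 to 89.9, against 95.6%, 93.0 to 97.4). For the other 7 elements the intervals were not separate. Repeats present at both ends of an element were not located, and the handling of multiply matching reads is not given. A read ending in such a repeat could be placed at either end, so shares by position may depend in part on placement. In the controls blood kept its contrast, at 47.4% in siGFP OSCs (41.7 to 53.1) and 75.5% in arrestin2 ovaries (61.1 to 86.7). Shares in siGFP OSCs were below those in siPIWI OSCs for mdg1 (6.74%, 2.51 to 14.1), Stalker2 (30.5%, 22.8 to 39.2) and springer (83.3%, 82.5 to 84.1). In arrestin2 ovaries '412' had 5.86% (3.32 to 9.48), below knockdown ovaries. The remaining control values of these elements rest on 20 reads or fewer. Over all transposons without copia the share was close, 77.7% in siPIWI OSCs and 75.1% in knockdown ovaries.

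Single sites were compared next, as the reads ending within 25 nt of a peak, leaving out reads already counted at a higher peak of that element. The peaks were found in these libraries, so their use is a description. In '412' the downstream site at 7522 took a like share, 41.6% in siPIWI OSCs (40.2 to 43.0) and 38.7% in knockdown ovaries (35.5 to 41.9). The 2 upstream sites did not. The site at 1452 took 12.2% (11.3 to 13.1) in OSCs and 29.2% (26.3 to 32.3) in ovaries, and the site at 1771 took 18.3% (17.2 to 19.4) in OSCs and 5.05% (3.72 to 6.69) in ovaries. In siGFP OSCs, with 20 reads, 6 ended at 1452, 3 at 1771 and 2 at 7522. In arrestin2 ovaries 57.0% of 256 reads ended at 1452 (50.7 to 63.2), and 3.91% (1.89 to 7.07) at each of 1771 and 7522, so the downstream site took a far smaller share there than in knockdown ovaries.

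Blood had a site with almost no reads in OSCs. Within 25 nt of 7240 there were 4 of 3759 reads in siPIWI OSCs (0.106%, 0.029 to 0.272) and 66 of 317 in knockdown ovaries (20.8%, 16.5 to 25.7), all 66 at that nucleotide itself. The controls had the same contrast, with 0 of 308 reads in siGFP OSCs and 6 of 49 in arrestin2 ovaries (12.2%, 4.63 to 24.8). Conversely the blood site at 1672 took 31.0% in siPIWI OSCs (29.6 to 32.6) and 8.20% in knockdown ovaries (5.43 to 11.8), with 28.6% in siGFP OSCs and 14.3% in arrestin2 ovaries. The Stalker2 site at 1338 took 373 of 2148 reads in siPIWI OSCs (17.4%) and 0 of 78 in knockdown ovaries (upper limit 4.62%).

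Of 60 sites, 5 for each of the 12 elements, 14 had a separately larger share in siPIWI OSCs, 10 in knockdown ovaries, and for 36 the intervals were not separate. No site of copia, Doc or DNAREP1 was separate. Some of the 60 sites held too few reads to be separate. The Doc sites at 142, 183 and 787 each had 1 of 86 reads in siPIWI OSCs and 0 of 170 in knockdown ovaries. Among DNA transposons, pogo and '1360' had sites that were. Pogo reads ended at 2039 of 2121 for 69.2% in siPIWI OSCs (62.2 to 75.6) and 41.7% in knockdown ovaries (33.4 to 50.4), and near its last base, at 2118, for 14.4% (9.76 to 20.1) and 40.3% (32.1 to 48.9). The controls lay alike, 79.2% and 7.50% for the 2 sites in siGFP OSCs and 36.7% and 43.6% in arrestin2 ovaries. In '1360' the site at 2232 took 29 of 214 reads in siPIWI OSCs (13.6%) and 0 of 54 in knockdown ovaries, with 8 of 105 in siGFP OSCs and 0 of 51 in arrestin2 ovaries.

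The very end of the element was compared last. The share of reads ending in the final 30 nt was 18.9% in siPIWI OSCs (12.3 to 26.9) and 3.32% in knockdown ovaries (2.01 to 5.13) for ZAM, 7.28% (6.81 to 7.77) and 1.91% (0.77 to 3.89) for gypsy and 5.61% (5.35 to 5.87) and 1.83% (0.738 to 3.73) for springer. Of the 12 elements, these 3 had a separately larger share in OSCs and pogo alone had one in ovaries. For copia the share was 1.01% (0.948 to 1.08) in OSCs and 1.44% (0.769 to 2.45) in ovaries. Springer had 6.67% in siGFP OSCs and 0 of 15 reads in arrestin2 ovaries, and gypsy 2.12% and 0 of 5 reads, so the ovary controls were too shallow to set beside them. ZAM had 6 of 17 reads there in siGFP OSCs and 1 of 3 in arrestin2 ovaries. For gypsy the share in siGFP OSCs (2.12%, 0.920 to 4.14) lay below that in siPIWI OSCs and close to that in knockdown ovaries, so its higher share was not seen in both OSC libraries. This window was chosen after the sites had been seen.

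**Figure D5:**
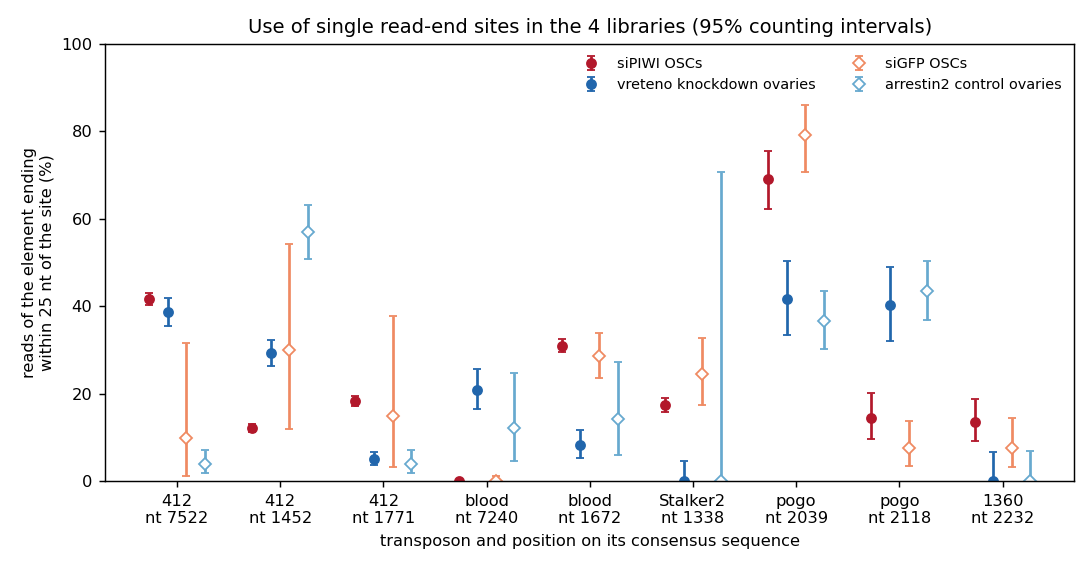
Percentage of an element's reads ending within 25 nt of 9 sites, in siPIWI OSCs and vreteno knockdown ovaries (filled circles) and in siGFP OSCs and arrestin2 control ovaries (open diamonds), with exact 95% counting intervals. At the blood site at 7240 both OSC libraries lie at or near 0 and both ovary libraries above 10%, and at the pogo sites each OSC library lies beside the other and each ovary library beside the other.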

How the data were processed

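Poly(A) RNA was prepared with the ONT RNA002 direct RNA kit, per the labels' protocols, and the submitters' processing notes name minimap2; its version, settings, the reference set, strand and the handling of multiply matching reads are not given in the sources used here. The authors deposited whole-number counts at 672432 positions of 150 sequences, read here as 3' read ends from their sparse pattern. Counts were summed per transposon and divided by the library's transposon total without copia, in Python 3.11.15 with scipy 1.17.1. Shares have Clopper-Pearson intervals and ratios of shares exact conditional intervals at 95%; a zero count has a floor of 3 reads. The calculation was tested on simulated data. Named elements were the 12 with the largest ratio in each direction, the 10 most abundant per library, all env-retrovirus and mdg1-group members, copia and the elements with at least 50 reads in both. Of 124 listed names 112 were matched, and 12 transposons in the files were in no list. Other elements past the minimum are named after their values were seen, as are the sites, the pairs of elements and the elements under the minimum. The members, lists and tests were chosen with earlier results of these data known. Alternatives covered the total, the scaling, the added share, the minimum, the fold and the part of the element counted.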

Additional observations from a re-analysis of the deposited data

Results flagged for a closer look

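Ratios of shares without copia, knockdown over control, were searched for opposite sides of 1 in the 2 cell sources. Only 2 elements had this with both counting intervals excluding 1. Other elements lay on opposite sides with an interval that included 1, such as '297' (7.50 in OSCs and 0.784 in ovaries). For springer the ratio was 0.664 in OSCs (siPIWI over siGFP, 95% counting interval 0.649 to 0.680) and 11.3 in ovaries (vreteno knockdown over arrestin2, 6.77 to 20.4). For '17.6' it was 1.51 in OSCs (1.01 to 2.34) and 0.382 in ovaries (0.214 to 0.675). With 1 library a group the difference was not tested. Both are shares of a total without copia. Springer reads numbered 31023 in siPIWI and 9220 in siGFP OSCs, and '17.6' reads 25 in knockdown and 29 in arrestin2 ovaries. With copia counted, the OSC totals were 164243 reads in siPIWI and 57045 in siGFP. On these totals the springer share was not lower in siPIWI OSCs, so its opposite directions depended on leaving out copia.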

How the results depend on the processing

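With 1 library a group no library could be left out, and no paired analysis was possible because each group had 1 library and the labels give no replicates. At the highest single position and in the last 30% of the sequence, all 25 elements at least 4-fold apart kept their direction. Without springer, 24 of 24 did. With copia in the total all 25 kept it too, but that shifts log2 ratios by -0.81, too little to turn a 4-fold difference. Under median scaling (added after seeing the data for the groups) roo had no direction, since its ratio of 0.225 equals the scaling factor. The others kept theirs, but '1360' and Juan (0.218 and 0.203 before scaling) came close to equal shares. Counts of elements moved more. Of 39 elements compared, 6 were higher in OSCs and 19 in ovaries. With a mean share of at least 0.5%, 23 were compared and 9 were higher in ovaries. Without a minimum 102 were compared, and the 6 and 19 were kept. Circe, Copia1 and diver were added in OSCs, and Chouto, G4, G5, INE-1, Ivk, TAHRE and Transib1 in ovaries. At 8-fold 2 were higher in OSCs, and with copia in the total 3 were, of 36 compared. Under median scaling 21 were higher in OSCs and 8 in ovaries, of a set larger than the 39. The main position was shared by 16 of 28 elements with at least 20 reads, by 8 of 12 within 25 nt (9 with tied positions counted, added after seeing the data) and by 9 of 12 for 25-nt windows.

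Group shares moved because they are parts of 1 total. Their log2 ratios, OSCs over ovaries, are given in the order env retroviruses, mdg1 group, other Ty3/gypsy, Bel-Pao, copia-like, telomeric, non-LTR and DNA transposons. They were 0.83, -0.43, 0.64, -0.69, -1.08, -1.43, -3.07 and -3.34 without copia. With copia in the total, and copia counted as copia-like, they were 0.023, -1.24, -0.17, -1.50, 1.54, -2.24, -3.88 and -4.15. Without copia and springer they were 0.34, 0.17, 1.24, -0.088, -0.48, -0.83, -2.47 and -2.74, and under median scaling 2.98, 1.72, 2.79, 1.46, 1.07, 0.72, -0.92 and -1.19. At the highest single position they were 0.56 for env retroviruses, 1.03 for other Ty3/gypsy, -0.036 for Bel-Pao, -2.74 for non-LTR and -2.88 for DNA transposons. In the last 30% they were 0.75, 0.24 and -0.35 for env retroviruses, other Ty3/gypsy and copia-like. The 5156 transposon reads of the knockdown ovaries limit the comparisons of rare elements.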
